A study of Mus musculus with 30 samples.

Results

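The core circadian clock was followed here through 10 genes, Clock, Arntl, Per2, Per3, Cry1, Cry2, Nr1d1, Nr1d2, Dbp and Tef, taken by symbol from the 23993 genes of the deposited expression table. Each symbol matched 1 gene. Values are FPKM (fragments counted per length of transcript and per depth of library), which can be compared between genes because they are scaled for length.

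The RNA came from tdTomato-positive cells sorted by fluorescence (FACS) from the medial prefrontal cortex (mPFC) of C57BL/6 mice 6 to 12 weeks old. All mice were heterozygous for the Ai9 tdTomato reporter, which is switched on by a Cre recombinase placed at Sst (somatostatin) or at Pvalb (parvalbumin), so a cell is tagged whenever it has used that promoter. Nonstressed controls were Sst females (7 libraries), Sst males (7) and Pvalb males (7), and 3 further libraries came from Sst males after 14 days of chronic unpredictable stress (CUS). The labels hold 30 samples, and 6 of them, from nonstressed or stressed females, are not analysed here. Mice were kept in a light-dark cycle, and CUS included light at night and darkness by day. The hour at which the cortex was collected is not given in the sources used here, so phase of the cycle and group cannot be told apart for any gene below. Nothing in the labels ties a library to a separate animal, and the p-values therefore measure the spread between these samples.

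The mammalian clock is a feedback loop of transcription. CLOCK and BMAL1 (the product of Arntl) bind E-boxes and switch on the Per and Cry genes, whose products return to the nucleus and repress them, while the REV-ERB receptors (Nr1d1, Nr1d2) repress Arntl. Dbp and Tef encode PAR bZIP factors that carry the rhythm to output genes through D-boxes, and Dbp is among the transcripts with the strongest daily rhythm in many tissues.

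Several libraries stood apart or went against their labels. Close to duplicates were SST0-M with SST1-M and PV0-M with PV2-M. Their log2 ratio over genes had an SD of only 0.0212 and 0.0170 (0.267 and 0.225 in the next closest pair of each group). The libraries of each pair were averaged, which left 22 samples. By the same SD, SST1-F, SST3-F and SST4-F lay closer to each other than to any other female library. So did SST2-F, SST5-F and SST6-F. Among Pvalb libraries, PV1-M, PV4-M and PV5-M formed such a set, and PV3-M with PV6-M another. These sets were not averaged. The fits take their samples as independent, so standard errors, intervals and adjusted p-values may be too small. All CUS libraries and 3 male Sst controls (SS04031R, SST040241L and SST04241LL) carry long titles, and in these 6 the small nucleolar RNAs took 53.7% to 75.9% of all FPKM, against at most 8.29% in the 18 libraries with short titles. Male Sst controls were therefore split into 3 short-titled and 3 long-titled samples, and the comparisons of sex, line and stress each began with samples of 1 kind of title. The 2 kinds were set against each other in the comparison of title series and where other controls were tried, as said beside those values. Microglia markers averaged 7.24 to 9.32 on the log2(FPKM + 1) scale and interneuron markers 0.91 to 2.46, so that markers of microglia stood far above those of the labelled cell type in all 24 libraries. Pvalb itself lay between 0.88 and 5.07 FPKM in the Pvalb libraries, below Sst in the same libraries (12.3 to 30.5 FPKM), and 3 Pvalb libraries labelled male (PV1-M, PV4-M and PV5-M) held at least 300.2 FPKM of Xist, the transcript of the inactive X chromosome, against at most 6.64 FPKM in the other Pvalb libraries. The Pvalb samples are called males below only as the labels have it. Sst was 0.238 to 6.02 FPKM in short-titled male Sst libraries and listed at 0 in SS04031R, so Sst and Pvalb name the reporter line of a sample below and not a cell type that its markers bore out. In such bulk RNA fewer cells of a type and less RNA per cell cannot be told apart.

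Promoter sequences are shown for Per3, Cry2, Nr1d1 and Dbp, the 4 genes whose level in 6 of 7 Sst females exceeded that in every short-titled Sst male (described below), and for Cry1, the only gene with 2 kinds of E-box string in 1 promoter. Of the 10 genes, 9 had promoters in the RefSeq table for GRCm38.p6, 13 promoters in all, each spanning 250 bases before to 50 bases after a transcription start. The strings searched, on both strands, were the E-box CACGTG (held by 7.15% of the 32851 promoters of that table), the E-box-like string CACGTT with its reverse complement AACGTG (4.68%), the D-box TTATGTAA or TTACGTAA (1.06%), and TAGGTCA, part of the site of ROR and REV-ERB receptors (2.61%). No string found overlapped another. Capitals mark the strings found, and each sequence is written on the strand of its gene.
Per3 promoter, chr4:151044616-151044915, minus strand: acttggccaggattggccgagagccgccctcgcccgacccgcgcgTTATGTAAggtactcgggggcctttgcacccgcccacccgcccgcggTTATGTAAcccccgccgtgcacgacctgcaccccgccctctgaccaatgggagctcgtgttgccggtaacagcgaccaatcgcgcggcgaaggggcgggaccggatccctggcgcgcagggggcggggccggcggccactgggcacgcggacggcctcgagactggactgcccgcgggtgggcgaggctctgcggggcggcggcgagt
Cry2 promoter, chr2:92434020-92434319, minus strand: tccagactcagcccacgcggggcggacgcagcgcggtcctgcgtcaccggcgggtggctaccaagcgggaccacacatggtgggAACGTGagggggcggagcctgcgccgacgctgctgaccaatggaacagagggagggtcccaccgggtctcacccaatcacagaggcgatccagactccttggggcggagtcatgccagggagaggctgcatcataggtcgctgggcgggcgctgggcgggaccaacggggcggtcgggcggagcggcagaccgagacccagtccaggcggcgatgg
Nr1d1 promoter, chr11:98775328-98775627, minus strand: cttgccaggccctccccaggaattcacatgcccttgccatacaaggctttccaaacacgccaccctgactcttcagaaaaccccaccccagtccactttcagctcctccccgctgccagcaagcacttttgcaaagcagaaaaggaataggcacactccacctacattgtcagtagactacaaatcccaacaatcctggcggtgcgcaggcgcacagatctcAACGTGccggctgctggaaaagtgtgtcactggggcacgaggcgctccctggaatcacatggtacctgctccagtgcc
Dbp promoter, chr7:45704997-45705296, plus strand: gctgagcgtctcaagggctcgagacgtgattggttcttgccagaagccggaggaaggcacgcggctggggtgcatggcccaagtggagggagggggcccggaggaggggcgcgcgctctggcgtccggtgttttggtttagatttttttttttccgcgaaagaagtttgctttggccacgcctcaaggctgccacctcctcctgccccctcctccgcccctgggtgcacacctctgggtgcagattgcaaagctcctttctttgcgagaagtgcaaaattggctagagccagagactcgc
Cry1 promoter, chr10:85185005-85185304, minus strand: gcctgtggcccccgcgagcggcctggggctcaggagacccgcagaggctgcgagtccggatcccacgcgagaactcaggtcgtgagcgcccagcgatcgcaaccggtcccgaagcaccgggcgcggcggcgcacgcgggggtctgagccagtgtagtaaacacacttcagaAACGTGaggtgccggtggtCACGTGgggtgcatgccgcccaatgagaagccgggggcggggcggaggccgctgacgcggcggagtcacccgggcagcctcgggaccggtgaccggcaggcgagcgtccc

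The Per3 promoter held the D-box at 205 and again at 158 bases before the start. An E-box-like string lay 166 bases before the start of Cry2 and 28 bases before that of Nr1d1. Cry1 had an E-box-like string 79 bases and an E-box 60 bases before its start, and both promoters of Tef held an E-box as well. None of the strings was in the window shown for Dbp, which says only that these letters are not in these 300 bases. Among the genes not printed, TAGGTCA was found 31 bases after the start of 1 of the Arntl promoters, and no string was found for Clock or Nr1d2. Per3, Cry2, Nr1d1 and Dbp shared no single string in these windows.

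Some of these genes overlap another on the genome, and whether the reads were counted by strand is not stated, so reads from overlapping genes on opposite strands cannot be told apart. Nr1d1 (chromosome 11, 98767932 to 98775377, minus strand, GRCm38.p6) shares 1075 bases with Thra, the gene of a thyroid hormone receptor, whose median was 16.9 FPKM in Sst females, 8.97 in short-titled males, 46.9 in long-titled males, 57.9 after CUS and 24.0 in Pvalb males. Dbp (chromosome 7, 45705100 to 45710203, plus strand) shares 741 bases with Sphk2, a sphingosine kinase gene on the other strand. Sphk2 ranged from 12 to 27.7 FPKM over the 22 samples, a far narrower range than that of Dbp. Cry2 (chromosome 2, 92403646 to 92434085, minus strand) shares 23417 bases with the noncoding gene D930015M05Rik, which lay between 1.74 and 40.5 FPKM. Per3 shares 4714 bases with Uts2, which was at most 0.903 FPKM. Reads within the shared bases were not examined for any of these genes.

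All 10 genes were above 0.4 FPKM in all 22 samples. Nr1d1 was the most abundant, with a mean of 88.4 FPKM that lay above 96.3% of the 14566 genes with a mean over 0.4 FPKM, and Cry1 was the least abundant at 3.74 FPKM. Between them the order by mean was Cry2 (28.9 FPKM), Per3 (21.8), Tef (20.3), Nr1d2 (18.5), Dbp (11.4), Clock (11.2), Arntl (9.18) and Per2 (7.87). Nr1d1 exceeded Cry2 in 22 of 22 samples and Per2 exceeded Cry1 in 21 of 22, whereas Per3 exceeded Tef in 8 of 22 and Dbp exceeded Clock in 9 of 22, so that neither of those neighbours was separated by more than its spread.

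The genes differed most in how far they varied. Dbp spanned a 31.4-fold range, from 1.04 FPKM in SST0-M/SST1-M to 32.5 in SST04241LL, and its SD of 1.03 on the log2(FPKM + 1) scale exceeded that of 92.8% of genes. Clock and Tef were the steadiest, with ranges of 2.19-fold and 2.08-fold and SDs smaller than those of all but 2.20% and 2.29% of genes. Per3 (4.11-fold), Cry2 (7.53-fold) and Nr1d1 (6.74-fold) lay between, above the median SD of all genes (0.56).

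**Figure D1:**
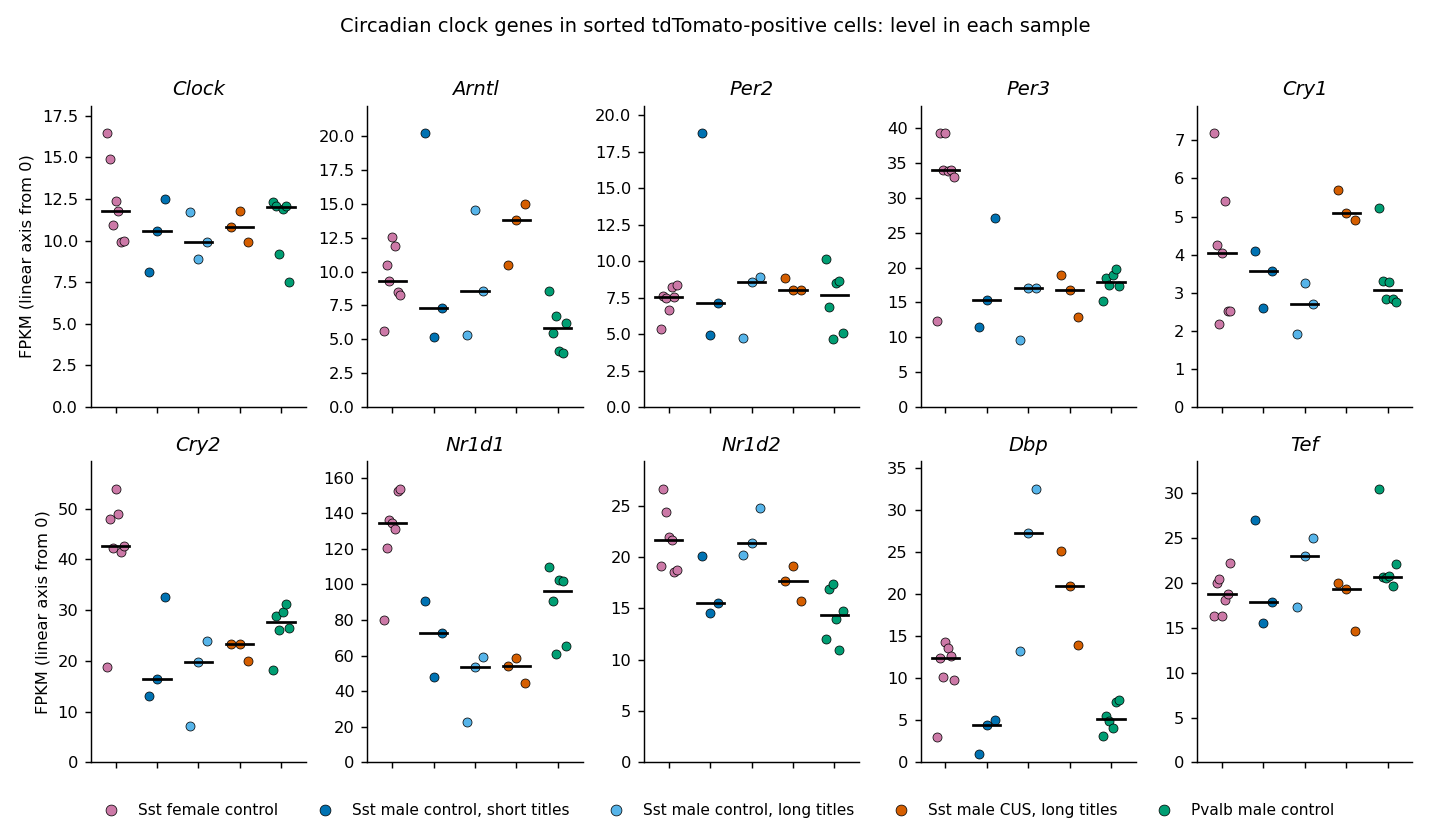
FPKM of each clock gene (y axes, linear from 0) in the 22 samples, by group, with each point a sample and each bar the group median. Dbp has its lowest median in the short-titled Sst males and its highest in the long-titled ones, whereas Clock stays between 7.51 and 16.4 FPKM throughout.

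The positive arm of the loop was led by Clock, which encodes a histone acetyltransferase and the partner of BMAL1. Clock ranged from 9.92 to 16.4 FPKM in Sst females (median 11.8) and from 7.51 to 12.3 in Pvalb males (median 12). In males it was 8.14, 10.6 and 12.5 FPKM in the short-titled controls (in the order SST0-M/SST1-M, SST3-M, SST4-M), 11.7, 8.92 and 9.94 in the long-titled controls (SS04031R, SST040241L, SST04241LL) and 10.8, 11.8 and 9.89 after CUS (SS04031LL, SS04031RL, SS04031RR). The same order of samples is used for all genes below, and all 5 groups overlapped for Clock.

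Arntl, the gene of BMAL1, was less even. It ranged from 5.58 to 12.6 FPKM in Sst females (median 9.28) and from 4.02 to 8.58 in Pvalb males (median 5.83). Its values were 20.2, 5.15 and 7.29 FPKM in short-titled males, 5.34, 14.5 and 8.56 in long-titled males and 10.5, 13.8 and 15.0 after CUS. The averaged pair SST0-M/SST1-M was the highest of all 22 samples, while SST3-M lay below every Sst female and SST4-M below 6 of 7.

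Among the repressors, Per2, which encodes a PERIOD protein that closes the loop with the cryptochromes, was close to even outside 1 sample. Per2 ranged from 5.33 to 8.36 FPKM in Sst females (median 7.57) and from 4.66 to 10.1 in Pvalb males (median 7.69). It measured 18.8, 4.94 and 7.12 FPKM in short-titled males, 4.75, 8.54 and 8.88 in long-titled males and 8.81, 8.01 and 8.04 after CUS. Again SST0-M/SST1-M was the highest of all samples, and without it the groups overlapped within 4.66 to 10.1 FPKM.

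Per3, a PERIOD gene with a weaker part in the core loop, followed another pattern. It ranged from 12.3 to 39.3 FPKM in Sst females (median 34.0) and from 15.2 to 19.8 in Pvalb males (median 18.0). The values were 11.5, 15.4 and 27.1 FPKM in short-titled males, 9.56, 17.1 and 17.1 in long-titled males and 18.9, 16.8 and 12.9 after CUS. Of the 7 females, 6 lay above all 15 samples labelled male (the 3 with Xist included), and SST-F (12.3 FPKM) lay among them.

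Cry1, which encodes the cryptochrome with the stronger repressor activity, was low throughout. It ranged from 2.18 to 7.18 FPKM in Sst females (median 4.03) and from 2.77 to 5.22 in Pvalb males (median 3.06). Short-titled males had 4.10, 2.60 and 3.57 FPKM, long-titled males 1.91, 3.26 and 2.69, and CUS males 5.70, 5.09 and 4.91. All 3 CUS samples lay above all 6 male Sst controls, and the highest value of all was that of SST-F.

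Cry2 encodes the other cryptochrome. It ranged from 18.8 to 53.9 FPKM in Sst females (median 42.7) and from 18.2 to 31.2 in Pvalb males (median 27.6). Short-titled males had 13, 16.4 and 32.6 FPKM, long-titled males 7.16, 19.8 and 24.0, and CUS males 23.3, 23.4 and 19.9. As for Per3, 6 of 7 females were above every male Sst control, SST-F was not, and SS04031R was the lowest sample of all.

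Nr1d1, which encodes REV-ERB alpha, a heme-binding receptor that represses Arntl, reached the highest levels. It ranged from 80.1 to 153.7 FPKM in Sst females (median 134.6) and from 60.9 to 109.7 in Pvalb males (median 96.4). Short-titled males had 90.5, 47.9 and 72.7 FPKM, long-titled males 22.8, 53.3 and 59.2, and CUS males 54.4, 58.6 and 44.8. Every female lay above every long-titled male, as was so for 35.8% of the genes in 1 direction or the other, and 6 of 7 lay above every short-titled male.

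Nr1d2, the gene of REV-ERB beta, varied little. It ranged from 18.5 to 26.7 FPKM in Sst females (median 21.7) and from 10.9 to 17.4 in Pvalb males (median 14.4), with no overlap between these 2 groups. The share of all genes without overlap between them was 6.61%. Short-titled males had 20.1, 14.5 and 15.6 FPKM, long-titled males 20.2, 21.4 and 24.8, and CUS males 17.7, 19.1 and 15.8, so that the CUS samples lay below the long-titled controls and inside the range of the short-titled ones.

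Of the output factors, Dbp separated the samples most. It ranged from 3.06 to 14.3 FPKM in Sst females (median 12.3) and from 3.18 to 7.41 in Pvalb males (median 5.19). Short-titled males had 1.04, 4.41 and 5.08 FPKM, long-titled males 13.2, 27.3 and 32.5, and CUS males 25.2, 20.9 and 13.9. All 6 long-titled samples were above all 3 short-titled males and above all 6 Pvalb males, a separation in 1 direction or the other that 16% of all genes showed. Of the 7 females, 6 (9.83 FPKM and more) lay above the short-titled and Pvalb males and overlapped the lowest long-titled samples.

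Tef, the gene of thyrotroph embryonic factor, was as steady as Clock. It ranged from 16.3 to 22.2 FPKM in Sst females (median 18.8) and from 19.6 to 30.5 in Pvalb males (median 20.7). Short-titled males had 26.9, 15.5 and 17.8 FPKM, long-titled males 17.3, 23.0 and 25, and CUS males 20.0, 19.3 and 14.7. The averaged pair PV0-M/PV2-M was the highest of all samples, and the groups overlapped.

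**Figure D2:**
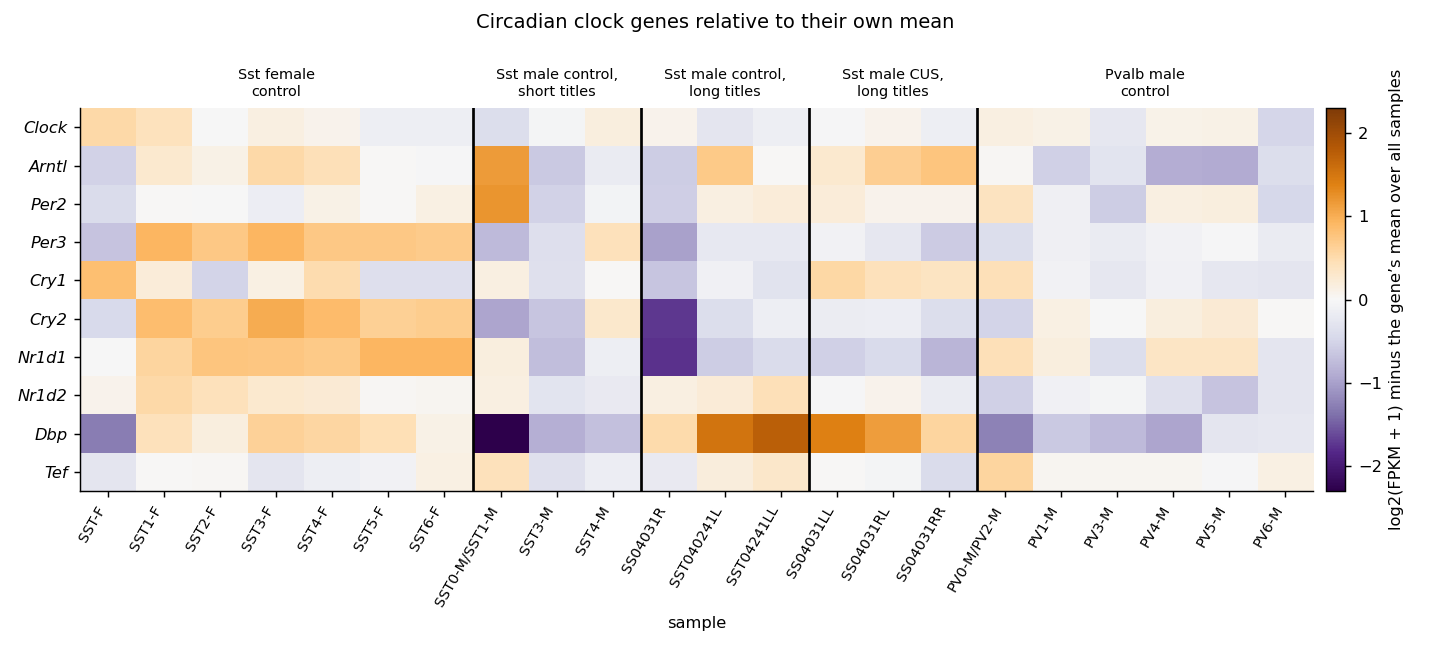
Color gives log2(FPKM + 1) of each clock gene (y axis) in each sample (x axis, grouped) minus the mean of that gene over the 22 samples. Per3, Cry2, Nr1d1 and Dbp are high together in 6 of 7 Sst females but not in SST-F, Dbp is lowest in SST0-M/SST1-M, and Cry2 and Nr1d1 are lowest in SS04031R.

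Ratios of 2 genes within a library do not depend on how libraries were scaled to each other, and they set the paralogs apart. The Per3 to Per2 ratio had a median of 4.49 in Sst females, 3.11 in short-titled males, 2.0 in long-titled males, 2.10 after CUS and 2.48 in Pvalb males. For Cry2 to Cry1 the medians were 13.4, 6.30, 6.07, 4.08 and 9.09 in the same order of groups. The Nr1d1 to Nr1d2 ratio was 6.05, 4.49, 2.39, 3.07 and 6.36, and the 6 long-titled samples (1.13 to 3.08) lay below all 16 short-titled ones (3.30 to 9.35). How many other pairs of genes separate in this way was not counted. Of single genes, 16% were without overlap between the 6 long-titled samples and the short-titled Sst and Pvalb males, a set that leaves out the females. No share was counted against all 16 short-titled samples, or for ratios. Dbp to Tef was 0.616, 0.284, 1.19, 1.08 and 0.252, so that Dbp reached the level of Tef only in long-titled samples, where the ratio ran from 0.765 to 1.30. Within 1 group the extremes were again single samples: SST-F was the lowest female for all 4 ratios, and SST0-M/SST1-M was the lowest short-titled male for Per3 to Per2, Cry2 to Cry1 and Dbp to Tef.

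**Figure D3:**
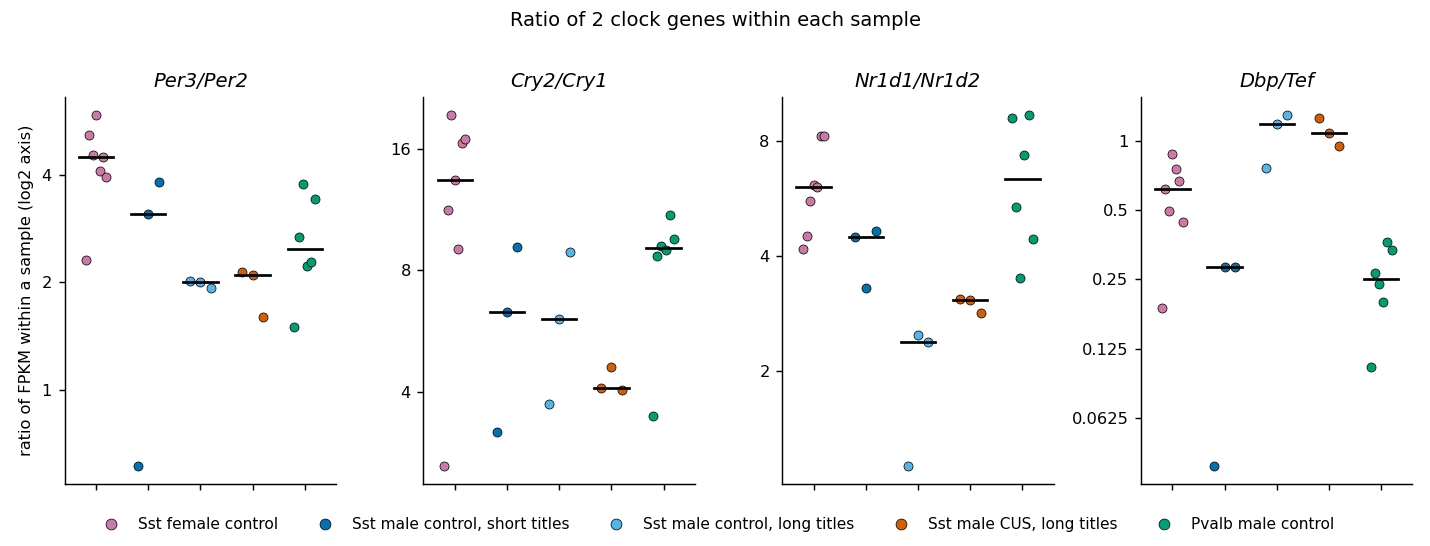
Ratio of FPKM of 2 clock genes within each sample (y axes, log2 scale), by group, with each point a sample and each bar the group median. The long-titled male controls and CUS males have the highest median Dbp to Tef ratios (1.19 and 1.08) and, sample by sample, the lowest Nr1d1 to Nr1d2 ratios (1.13 to 3.08).

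To examine a sex difference in the Sst line, the 7 females were compared with the 3 short-titled males. Dbp, Cry2, Nr1d1 and Per3 were higher in females by 1.44, 1.04, 0.89 and 0.82 on the log2(FPKM + 1) scale, but none of the 10 genes passed the threshold (adjusted p under 0.05, limma, adjusted by Benjamini-Hochberg over 14443 genes), where 3.41% of all genes did. At an unadjusted p under 0.05 these 4 of the 10 genes passed, beside 3515 of all genes. The median difference of the 10 genes was 0.29, against 0.05 for all genes. Of the 7 females, 6 (not SST-F) were above every short-titled male for each of the 4, and no clock gene was without overlap, as 9.73% of all genes were. That share is for all 7 females. The share of all genes with 6 of 7 females beyond every short-titled male was not counted.

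Dbp differed by 1.44 ± 0.44 (SE, 7 against 3 samples; 95% confidence interval 0.49 to 2.40; limma, adjusted p = 0.0820). For Nr1d1 the difference was 0.89 ± 0.24 (interval 0.37 to 1.42; adjusted p = 0.0595), and for Cry2 1.04 ± 0.33 (0.33 to 1.76; adjusted p = 0.0914). Per3 differed by 0.82 ± 0.35 (0.06 to 1.57; adjusted p = 0.177). The other genes had intervals that held 0, from 0.35 ± 0.17 for Nr1d2 to -0.25 ± 0.31 for Per2. Thra, which overlaps Nr1d1, was 14.8 to 20.4 FPKM in females and 3.20 to 11.8 in short-titled males. The part of Thra reads in the Nr1d1 difference was not tested.

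Marker means separated the same 2 groups. Endothelial markers averaged 3.43 to 4.30 in female libraries and 2.16 to 3.35 in short-titled male libraries on the log2(FPKM + 1) scale, and interneuron markers 1.63 to 2.46 and 1.30 to 1.55, and the part of this in the clock genes was not tested.

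Both the calls and the sizes depended on SST-F and on the males, and the calls on the processing as well (given below). In the marker lists SST-F differed from the other 6 female libraries, with an excitatory neuron mean of 3.54 (against 2.19 to 2.42), an interneuron mean of 2.46 (1.63 to 1.98) and an astrocyte mean of 5.79 (6.24 to 6.32) on the log2(FPKM + 1) scale, and the part of this in the result was not tested. Without SST-F, 4 of the 10 genes rose in females (12.4% of all genes were called in this comparison): Dbp by 1.68 (adjusted p = 0.0128), Cry2 by 1.22 (adjusted p = 0.0139), Nr1d1 by 1.00 (adjusted p = 0.0129) and Per3 by 1.03 (adjusted p = 0.0195). Leaving out SST0-M/SST1-M as well gave 6 of 10, with Arntl and Nr1d2 added, where 22.0% of all genes were called. Leaving out SST0-M/SST1-M alone lowered Dbp from 1.44 to 0.945, Cry2 to 0.784 and Per3 to 0.558, while Nr1d1 was 1.1 (adjusted p = 0.0274). Without SST3-M, Nr1d1 was 0.645 (adjusted p = 0.155). Without SST4-M, Cry2 was 1.41 (adjusted p = 0.0358). Over all alternatives the adjusted p ran from 0.00181 to 0.862 for Dbp, from 0.00994 to 0.229 for Cry2, from 0.000973 to 0.249 for Nr1d1 and from 0.0165 to 0.410 for Per3.

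The choice of males mattered as well. Against all 6 male Sst controls, Nr1d1 (1.24, adjusted p = 0.0161), Cry2 (1.20, adjusted p = 0.0256) and Per3 (0.94, adjusted p = 0.0414) were higher in females, 3 of 10 genes where 11.7% of all genes were called, but Dbp was not (0.17, adjusted p = 0.862). Against the 3 long-titled males alone, Dbp turned to -1.11 (adjusted p = 0.0391), whereas Per3, Cry2 and Nr1d1 were higher in females by 1.06, 1.36 and 1.59. That comparison called 41.5% of all genes, and in it sex and title series cannot be told apart. With the microglia markers as a covariate the short-titled comparison gave Nr1d1 0.85 (adjusted p = 0.0382), Cry2 0.98, Dbp 1.40 and Per3 0.75.

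The Sst and Pvalb lines were then compared, 10 short-titled Sst controls of both sexes against 6 Pvalb samples labelled male. Nr1d2 was 0.46 ± 0.15 higher in Sst samples (SE; 95% confidence interval 0.15 to 0.77; limma, adjusted p = 0.0534), and Arntl was 0.62 ± 0.24 higher (0.12 to 1.12; adjusted p = 0.0992). None of the 10 clock genes passed the threshold, where 10.2% of all 14483 genes did, and these 2 passed at an unadjusted p under 0.05, beside 3999 of all genes. The differences of the other genes ran from 0.50 for Per3 (interval -0.04 to 1.04) to -0.21 for Tef (-0.50 to 0.08), with a median of 0.29 over the 10 genes and 0.01 over all genes. For Nr1d2, 8 of 10 Sst samples were above every Pvalb sample. The Sst females and short-titled males also serve in the comparison of the sexes, so the results share samples.

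The result depended on which Sst samples stood for the line. The 7 females alone against Pvalb males gave 6 of 10 genes higher in Sst (25.1% of all genes were called): Nr1d2 by 0.57 (adjusted p = 0.00726), Per3 by 0.75 (adjusted p = 0.0210), Arntl by 0.62 (adjusted p = 0.0322), Nr1d1 by 0.55 (adjusted p = 0.0333), Dbp by 0.84 (adjusted p = 0.0430) and Cry2 by 0.60 (adjusted p = 0.0452). In that comparison line and labelled sex cannot be told apart, and 3 of the 6 Pvalb samples carried Xist against their label. The 3 short-titled Sst males against the Pvalb males gave -0.61 for Dbp, -0.44 for Cry2, -0.34 for Nr1d1 and -0.07 for Per3, whereas Arntl (0.62) and Nr1d2 (0.22) kept their sign, and none passed the threshold. For Arntl only SST0-M/SST1-M (20.2 FPKM) lay above the Pvalb range (4.02 to 8.58), with SST3-M (5.15) and SST4-M (7.29) inside it. The same held for Nr1d2 (20.1 FPKM, against 14.5 and 15.6 inside 10.9 to 17.4). Over all alternatives the adjusted p ran from 0.00726 to 0.937 for Nr1d2 and from 0.0322 to 0.801 for Arntl.

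The lines also differed in their markers. The mean of the microglia markers was 8.80 to 9.32 in Pvalb libraries and 8.01 to 8.79 in short-titled Sst libraries on the log2(FPKM + 1) scale. With that mean as a covariate the median of the 10 clock genes went from 0.29 to -0.38, 1 of the 10 (Nr1d2, 0.20) remained above 0, and 1 of all 14483 genes was called. The ranges of that mean did not overlap between the lines, so line and microglia mean cannot be told apart in this fit. Without PV1-M, PV4-M and PV5-M, the libraries that carried Xist, Nr1d2 differed by 0.42 (adjusted p = 0.336) and Arntl by 0.34 (adjusted p = 0.646).

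For CUS, the 3 stressed Sst males were compared with the 3 long-titled controls. Cry1 was higher in all 3 CUS samples, by 0.80 ± 0.20 on the log2(FPKM + 1) scale (SE; 95% confidence interval 0.32 to 1.28; limma over 14186 genes, adjusted p = 0.647). None of the 10 clock genes passed the threshold, where 0.00705% of all genes (1 gene) did. At an unadjusted p under 0.05, Cry1 passed alone among the 10, beside 956 of all genes. The median of the 10 differences was 0.18, and that of all genes was 0.00.

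Cry1 (higher) and Nr1d2 (lower) were the genes without overlap between CUS and long-titled controls, as were 18.7% of all genes. Against all 6 male controls only Cry1 of the 10 had no overlap (7.10% of all genes), with a difference of 0.65 (adjusted p = 0.641). The lowest control for Cry1 was SS04031R, and without it the difference was 0.65 ± 0.18 (adjusted p = 0.274). The titles of all 3 CUS samples begin with SS04031, as does that of SS04031R but not those of the other 2 controls. With that start as a covariate, chosen after seeing the data, the difference rests on SS04031R as the 1 control, which is assumed to vary like the other samples. Then 6 of 10 clock genes were higher after CUS, where 34.0% of all genes were called: Cry2 by 1.5, Nr1d1 by 1.16, Arntl by 1.14, Cry1 by 1.09 (adjusted p = 0.00693), Per2 by 0.69 and Per3 by 0.69. SS04031R was the library with the lowest astrocyte (5.07), oligodendrocyte (5.40) and interneuron (0.91) marker means of all 24, and the part of this was not tested. Over all alternatives the adjusted p for Cry1 ran from 0.00693 to 1. Nr1d2 differed by -0.32 ± 0.14 (interval -0.65 to 0.01) and Arntl by 0.51 ± 0.33 (-0.26 to 1.28).

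Dbp differed by -0.22 ± 0.36 between stressed and long-titled control males, with an interval of -1.06 to 0.62 that leaves room for a change in either direction. Against the 3 short-titled controls instead, Dbp was 2.33 higher in CUS males (adjusted p = 0.0228), the 1 clock gene called where 16.1% of all genes were, and in that comparison stress cannot be told apart from title series. The intervals of Clock (-0.28 to 0.45), Per2 (-0.36 to 0.74), Per3 (-0.43 to 0.77), Cry2 (-0.42 to 1.45), Nr1d1 (-0.51 to 1.15) and Tef (-0.70 to 0.19) against the long-titled controls held 0 as well. In the same samples the oligodendrocyte markers averaged 7.26 to 7.54 after CUS and 5.40 to 6.96 in long-titled controls, the endothelial markers 4.48 to 5.09 and 1.92 to 4.29, and the microglia markers 7.24 to 7.46 and 7.49 to 8.54, and the part of this in the clock genes was not tested.

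The 3 long-titled male controls were last compared with the 3 short-titled ones, which carry the same labels. Dbp was higher in the long-titled samples by 2.55 ± 0.52 on the log2(FPKM + 1) scale (SE, 3 against 3; 95% confidence interval 1.33 to 3.77; limma, adjusted p = 0.0427), 1 of 10 clock genes called where 4.11% of all 14230 genes were. The call was lost on leaving out any 1 of the samples SS04031R (adjusted p = 0.0710), SST040241L (0.177), SST04241LL (0.183), SST3-M (0.0892) and SST4-M (0.0763), though the difference stayed between 2.05 and 2.92. Dbp and Nr1d2 were without overlap between the 2 kinds of title, as were 33.5% of all genes. Nr1d1 differed by -0.69 ± 0.43 (interval -1.70 to 0.31) in samples whose Thra, the overlapping gene, was 24.5 to 48.6 FPKM against 3.20 to 11.8, and the part of Thra reads in the Nr1d1 value was not tested. The long-titled controls serve in this comparison and in that of CUS.

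**Figure D4:**
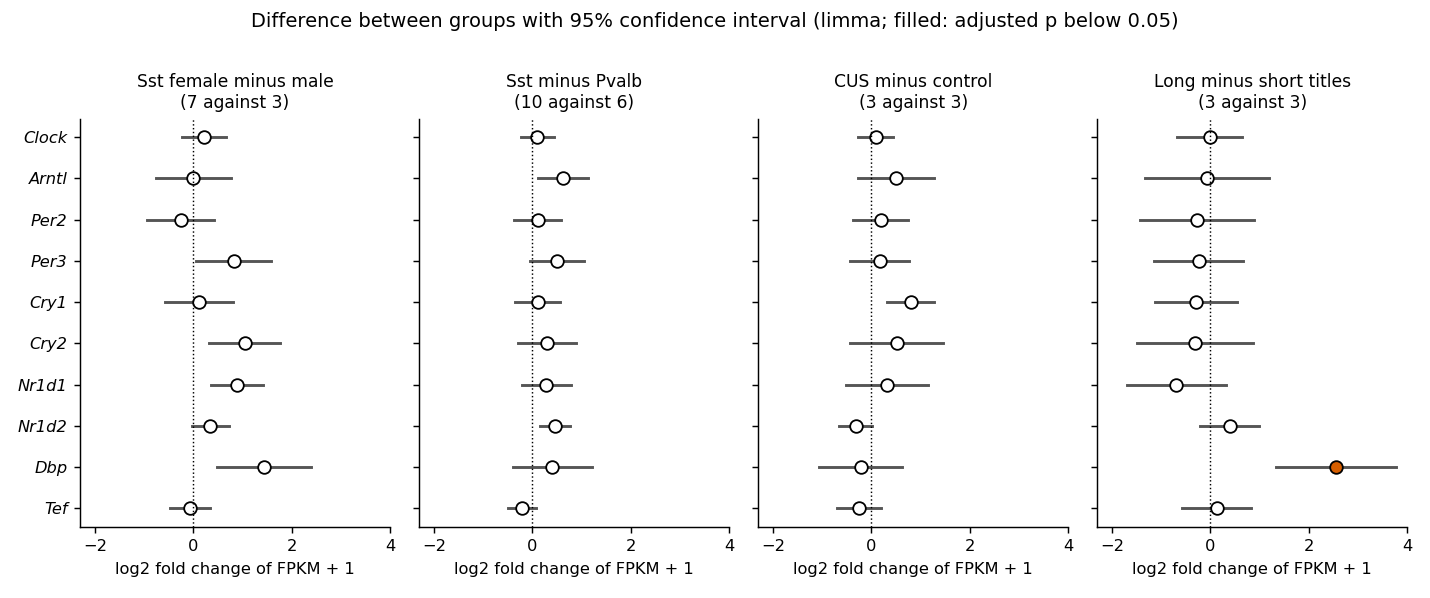
Log2 fold change of FPKM + 1 (x axes) with its 95% confidence interval for each clock gene (y axis) in the 4 comparisons, filled where the adjusted p is below 0.05. Dbp in long-titled against short-titled males (2.55) is the 1 filled point, and in Sst females against males the intervals of Per3, Cry2, Nr1d1 and Dbp lie above 0.

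A further 22 clock genes were counted for context. Between the sexes none of 22 passed the threshold in either direction, and of the 4 at an unadjusted p under 0.05 Rorb was higher in females (0.59), whereas Per1 (-0.77, adjusted p = 0.0688 by limma), Bhlhe41 (-0.37) and Csnk1d (-0.41) were lower. These 4 are named after their values were seen. Against all 6 male controls, of both kinds of title, 11.7% of all genes were called. Of the 22, 1 was higher in females, Rorb (0.99, adjusted p = 0.0291 by limma). Lower were 2, Per1 (-0.77, adjusted p = 0.0174) and Csnk1e (-0.85, adjusted p = 0.0411). None passed after CUS (3 at an unadjusted p under 0.05). Between the lines 10.2% of all genes were called in either direction. Of the 21 further clock genes tested, 3 were lower in short-titled Sst samples and none higher. They were Csnk1e, a casein kinase that phosphorylates PER proteins (-0.77 ± 0.16, adjusted p = 0.00930 by limma), Fbxl21, which encodes an F-box protein that acts on cryptochromes (-0.85 ± 0.25, adjusted p = 0.0359), and Usp2, a deubiquitinase gene (-0.54 ± 0.15, adjusted p = 0.0273). Leaving out 1 sample at a time kept Csnk1e called in 16 of 16 fits, Usp2 in 13 and Fbxl21 in 8. Long-titled samples are in none of these fits. Csnk1e was 98.5 to 170 FPKM in long-titled Sst male controls and 84.9 to 91.2 after CUS, against 72.3 to 111 in Pvalb samples. Fbxl21 (1.06 to 1.66 FPKM) and Usp2 (14.3 to 28.7) in the long-titled and CUS samples lay below every Pvalb sample (at least 3.63 and 37.8). Without PV1-M, PV4-M and PV5-M, which carried Xist, none of the 3 genes was called, where 9 of all genes were. Csnk1e was then -0.58 (adjusted p = 0.253 by limma), Fbxl21 -0.76 (0.321) and Usp2 -0.26 (0.498). With the microglia markers as a covariate the differences were -0.05, -0.54 and -0.07 for Csnk1e, Fbxl21 and Usp2, and none was called. Line and microglia mean cannot be told apart in that fit, as said above. Between the kinds of title, where 4.11% of all genes were called in either direction, 1 of 20 was lower in long-titled males and none higher. It was Hlf, the third PAR bZIP factor gene beside Dbp and Tef (-1.75 ± 0.37, adjusted p = 0.0462 by limma), called in 1 of 6 fits without 1 sample.

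Over the 16 short-titled samples and 9254 genes with a mean above 5 FPKM, the genes most like Dbp by Pearson's r of log2(FPKM + 1) were Nsfl1c (0.953), Rgs6 (0.933) and Cry2 (0.933), and Per3 was at 0.908. Arntl was most like Pou3f3os (0.950), Stxbp6 (0.947) and Tmc7 (0.944), and its r with Nr1d1 was 0.404. These values describe samples that share the same few extreme libraries, SST-F and SST0-M/SST1-M among them, and no test was made of them.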

How the data were processed

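RNA-seq was performed on FACS-sorted tdTomato-positive cells of the mPFC. The authors deposited FPKM for 23993 genes in 24 libraries. According to their Methods, trimmed reads went through HISAT2 (mm10) and StringTie, with TopHat2 and mm9 named as well, while the submitters' processing notes name TopHat2, Cufflinks and Cuffdiff with mm10. The authors ran DESeq2 on counts for their tests, dropped samples over 2 standard deviations from a group's mean and used ComBat against batch effects. Whether the deposited FPKM went through ComBat is not stated. Totals differ between libraries (276023 to 1311420 FPKM) while the upper quartile over genes is alike (9.50 to 10.7 FPKM), so the values were scaled between libraries. The paper gives a range of reads per sample, but the read counts of each library are unknown. The lowest values gave an approximate relative depth of 0.459 to 2.46 (SST2-F = 1), and no counting interval can be given.

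Libraries of a group were averaged and counted once where the SD of their log2 ratio (genes above 5 FPKM) was less than 10% of the SD in the second closest pair. Values were transformed to log2(FPKM + 1), a scale that understates changes of low genes. Each comparison took genes whose mean exceeded 0.4 FPKM in its samples and fitted them in limma 3.58.1 (R 4.3.3, trended and robust eBayes). Two-sided p-values were adjusted by the Benjamini-Hochberg method across these genes, with 0.05 as the threshold, and the procedure was checked on simulated data. Python 3.11.15, numpy 2.4.6, pandas 2.3.3 and matplotlib 3.10.9 served for the other steps. Alternatives were the filter (none, 1 FPKM), the pseudocount (0.1, 5), a common median, quantile normalization, 1 fit over all groups, plain eBayes, the microglia markers or sex as a covariate, other sets of controls, a replicate block and leaving out each sample. The members, the 22 further clock genes, the markers and the tests were chosen with earlier results of these data known. The rule for naming was all 10 members, those of the 22 past the threshold (at most 8), and the 3 genes most like Arntl and Dbp. The further gene Noct was read under its older symbol Ccrn4l. Gene positions and promoters are those of RefSeq for GRCm38.p6.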

Additional observations from a re-analysis of the deposited data

Results flagged for a closer look

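In 7 of 30 sets of values (10 clock genes in the groups of 4 to 10 samples) 1 sample lay far from the others by Dixon's test. The sets share samples and are not independent, so the rate of 1 in 20 for a single set is no measure of chance here. The share of all genes flagged in this way was not counted. Of the 7 sets, 4 were the sample SST-F among the 7 Sst females. It had 12.3 FPKM for Per3, 18.8 for Cry2, 80.1 for Nr1d1 and 3.06 for Dbp, each the lowest of the females. The other 3 were the averaged pair PV0-M/PV2-M among the 6 Pvalb males, with 5.22 FPKM for Cry1 and 30.5 for Tef, each the highest, and 18.2 for Cry2, the lowest. In the marker lists PV0-M and PV2-M had an excitatory neuron mean of 2.14 on the log2(FPKM + 1) scale, against 3.59 to 3.79 in the other Pvalb libraries, and SST-F had 3.54 against 2.19 to 2.42 in the other females. The part of these markers in the clock gene values was not tested.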

How the results depend on the processing

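Unless named here, an alternative left the number of clock genes called unchanged. Brackets after an alternative hold the genes called among all genes tested, and for CUS these shares are given above. Between the sexes (0 of 10) it was 1 with a common median (492 of 14443) and 1 with quantile normalization (364 of 14443). The microglia markers as a covariate gave 1 (842 of 14443) and 1 fit over all groups gave 3 (1232 of 14443). It was 3 against all 6 male controls (1699 of 14498) and 4 against the long-titled males alone (6032 of 14532). Without SST-F it was 4 (1787 of 14381), and without SST-F and SST0-M/SST1-M 6 (3166 of 14409). Leaving out 1 sample gave 0 to 4. Of these fits, that without SST0-M/SST1-M gave 1 (899 of 14461) and that without SST4-M gave 1 (1090 of 14438). Between the lines (0 of 10) it was 1 with quantile normalization (1774 of 14483) and 1 in 1 fit over all groups (2744 of 14483). All 13 Sst controls gave 1 (1133 of 14524) and the females alone gave 6 (3638 of 14502). Without SST-F and SST0-M/SST1-M it was 4 (3059 of 14439). Leaving out 1 sample gave 0 to 1. It was 1 without SST0-M/SST1-M (2620 of 14476), SST3-M (1987 of 14503), SST4-M (1471 of 14486) or PV0-M/PV2-M (2883 of 14466). For CUS (0 of 10) it was 1 against the short-titled controls alone, 6 with the start of the title as a covariate and 0 on leaving out any 1 sample. For the title series (1 of 10) it was 0 without a filter (381 of 17503) and 0 with a pseudocount of 0.1 (499 of 14230). The microglia markers as a covariate gave 0 (230 of 14230). Against the 10 short-titled Sst samples of both sexes it was 2, Dbp at 1.54 and Nr1d1 at -1.32 (3805 of 14498). Without SS04031R and SST0-M/SST1-M it was 2, Dbp and Nr1d2 (4377 of 14328). Leaving out 1 sample gave 0 to 1, with 1 without SST0-M/SST1-M (1962 of 14275). The cause was not tested.

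Every change of sign of a clock gene is given here, on the log2(FPKM + 1) scale, however small. Between the sexes Arntl, at -9.7e-05, was 0.0155 with a pseudocount of 0.1, 0.0433 with a common median, 0.0335 against all 6 males, 0.30 with the replicate block and 0.11 without SST-F (Cry1 -0.0130). Quantile normalization gave Arntl 0.0745, Cry1 -0.0773 and Tef 0.0975, the long-titled males alone gave Arntl 0.0670, Per2 0.0191, Nr1d2 -0.0409 and Dbp -1.11, and leaving out SST-F and SST0-M/SST1-M gave Arntl 0.63, Per2 0.31 and Tef 0.20. Leaving out 1 sample gave Arntl -0.37 to 0.52, Per2 -0.62 to 0.25, Cry1 -0.0236 to 0.23 and Tef -0.21 to 0.16. Between the lines the microglia covariate gave Clock -0.0208, Arntl -0.60, Per2 -0.73, Per3 -0.30, Cry1 -0.35, Cry2 -0.42, Nr1d1 -0.56 and Dbp -0.0495. The short-titled Sst males alone, and equally sex as a covariate, gave Clock -0.0535, Per3 -0.0725, Cry2 -0.44, Nr1d1 -0.34 and Dbp -0.61. Cry1 was -0.0278 with the replicate block and -0.0138 without SST-F and SST0-M/SST1-M, Nr1d1 was -0.0184 with all 13 Sst controls, and Per2 was -0.0235 to 0.20 on leaving out 1 sample. For CUS, the microglia covariate gave Arntl -0.0432, Per2 -0.19, Per3 -0.22, Cry2 -0.24 and Nr1d1 -0.33, and the start of the title as a covariate gave Clock -0.11, Dbp 0.53 and Tef 0.0430. The short-titled controls alone gave Per2 -0.0841, Per3 -0.0737, Nr1d1 -0.37, Nr1d2 0.0696 and Dbp 2.33, and all 6 male controls Nr1d1 -0.0273 and Dbp 1.06. All male controls but SS04031R gave Per2 -0.0763, Per3 -0.0808, Nr1d1 -0.27 and Dbp 1.17, and all 13 Sst controls Clock -0.0481, Per3 -0.46, Cry2 -0.29, Nr1d1 -0.70 and Dbp 0.97. Leaving out 1 sample gave Per2 -0.0647 to 0.33, Per3 -0.0915 to 0.31, Nr1d1 -0.10 to 0.57 and Dbp -0.59 to 0.0301. For the title series, a common median gave Clock 0.0680 and Arntl 0.0215, quantile normalization Clock 0.0038 and Arntl 0.11, the microglia covariate Clock 0.0839 and Tef -0.0992, and leaving out SS04031R and SST0-M/SST1-M Arntl 0.77 and Per2 0.48. Leaving out 1 sample gave Clock -0.17 to 0.11, Arntl -0.44 to 0.46, Per2 -0.64 to 0.23, Per3 -0.50 to 0.0840, Cry2 -0.63 to 0.18 and Tef -0.0282 to 0.35.

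The number of all genes called moved by more than 1.5 times as follows. Between the sexes 493 became 1232 in 1 fit over all groups, 842 with the microglia covariate, 1699 against all 6 males, 6032 against the long-titled males, 1787 without SST-F, 3166 without SST-F and SST0-M/SST1-M, 11 with the replicate block and 100 to 1787 on leaving out 1 sample. Between the lines 1478 became 2744 in 1 fit over all groups, 1 with the microglia covariate, 3638 with females alone, 13 with short-titled males alone, 9 without PV1-M, PV4-M and PV5-M, 293 with sex as a covariate, 3059 without SST-F and SST0-M/SST1-M and 554 to 2883 on leaving out 1 sample. For CUS 1 became 3 in 1 fit over all groups, 4 with the microglia covariate, 2309 against short-titled controls, 6 against all 13 Sst controls, 2 against all males but SS04031R, 4829 with the start of the title as a covariate and 1 to 16 on leaving out 1 sample. For the title series 585 became 381 without a filter, 1110 with quantile normalization, 3608 in 1 fit over all groups, 230 with the microglia covariate, 3805 against short-titled samples of both sexes, 4377 without SS04031R and SST0-M/SST1-M, and 54 to 1962 on leaving out 1 sample.

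With the replicate number as a block, 0 clock genes were called between the sexes (11 of all genes) and 0 between the lines (1190 of all genes). Same-numbered samples did not deviate together (r from -0.049 to 0.050 for females and males, -0.016 to 0.051 for females and Pvalb males, and -0.044 to 0.123 for males and Pvalb males), so the numbers were taken as names. For CUS and the title series, no paired analysis was possible because the long titles carry no replicate numbers. For CUS the shared start of the titles served as a covariate instead. Leaving out SST-F or SS04031R together with SST0-M/SST1-M, SS04031R alone from all 6 male controls, and the start of the title as a covariate were chosen after seeing the data. The read depth of each library is unknown, Cry1 had the lowest mean level of the 10 genes (1.91 to 7.18 FPKM), and the intervals for CUS, with 3 samples against 3, reach 1.45 for Cry2 and 1.28 for Arntl.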
